A study of Drosophila melanogaster with 2 samples.

Results

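The 10 genes described here encode cyclins and the enzymes that drive and end mitosis in Drosophila melanogaster, and they were chosen by symbol as CycA, CycB, CycB3, CycD, CycE, Cdk1, stg, twe, polo and fzr. They are 10 of 13945 protein-coding genes on the arms that carry regions in these lists. Each was examined over its annotated gene body with 5 kb added on either side. The experiment mapped chromatin bound by CG12236, a BTB domain zinc finger protein carried as a transgene with a C-terminal green fluorescent protein tag. Chromatin from whole embryos of both sexes, aged 0 to 24 h, was precipitated with an anti-GFP antibody, in 1 group of 2 biological replicates that the labels number 1 and 3. Every embryo carried the fusion, there was no second genotype or treatment, and the labels do not name the promoter that drives the transgene. All stages and cell types of the embryo were mixed, so a signal is an average over them, and 2 replicates of 1 group allow no comparison between conditions.

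Cyclins switch on cyclin-dependent kinases at set points of the cell cycle and are then destroyed. CycD and CycE act in G1 and at entry into S phase, and CycA, CycB and CycB3 act with Cdk1 in mitosis. Cdk1 is held inactive by phosphorylation until a Cdc25 phosphatase, stg in embryonic divisions and twe mainly in meiosis, removes the phosphate. The kinase polo acts at centrosomes, kinetochores and in cytokinesis, and fzr directs the anaphase-promoting complex to destroy mitotic cyclins as cells leave the cycle. In the fly embryo the early divisions run on maternal stores, after which pulses of stg transcription time mitosis and fzr and the loss of CycE activity accompany the exit from division.

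Lists of bound regions came in 4 forms on assembly dm6. There were 30000 regions for each replicate, 30000 from both replicates pooled, and 2426 peaks of the optimal list by irreproducible discovery rate (IDR), which are the 2426 strongest pooled regions. The signal of a region is the authors' own value, its scale is not stated, and it serves here only to rank and describe regions within a list. The lowest pooled signal was 16.9, the median 25.4 and the lowest in the IDR list 70.5. Medians were 12.6 in replicate 1 and 16.7 in replicate 3, so regions are set side by side across lists by rank, and a ratio of signals between lists is descriptive. Read totals were not used here, so depth is unknown for all lists, and no p-value is given. The long lists were deposited as peaks together with background, so a weak region in them is not a binding site by itself. Coordinates are 1-based.

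The sequences below lie under regions that the results turn on, taken from the forward strand of the RefSeq Release 6 genome, with annotated untranslated sequence left out. They are the strong region past the 3′ end of fzr at chrX:4666900-4667135, the stretch upstream of fzr at chrX:4679843-4679987 (its summit lies just past the right end, in untranslated sequence), the gap shared by Cdk1 and mRpS7 at chr2L:10386418-10386661, the intronic region of CycE at chr2L:15747145-15747444, the region upstream of CycD at chrX:15910027-15910326, and the stretch just upstream of CycB3 at chr3R:24870817-24870903 (its summit lies past the left end, in untranslated sequence). Capitals mark matches, on either strand, to a fixed set of 11 words given with the motif counts.
fzr 3′ side: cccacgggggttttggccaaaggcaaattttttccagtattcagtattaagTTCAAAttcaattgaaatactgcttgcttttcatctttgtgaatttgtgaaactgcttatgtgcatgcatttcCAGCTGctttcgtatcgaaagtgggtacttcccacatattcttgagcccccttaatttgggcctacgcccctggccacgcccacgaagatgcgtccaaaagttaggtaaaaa
fzr upstream: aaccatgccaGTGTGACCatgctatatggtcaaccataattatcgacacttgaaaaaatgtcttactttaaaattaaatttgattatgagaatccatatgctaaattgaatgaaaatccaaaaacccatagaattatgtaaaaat
Cdk1 and mRpS7: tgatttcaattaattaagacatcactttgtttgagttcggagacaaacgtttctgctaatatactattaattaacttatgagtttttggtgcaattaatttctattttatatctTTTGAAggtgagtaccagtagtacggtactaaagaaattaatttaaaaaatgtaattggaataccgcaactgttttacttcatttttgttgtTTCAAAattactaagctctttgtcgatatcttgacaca
CycE intron: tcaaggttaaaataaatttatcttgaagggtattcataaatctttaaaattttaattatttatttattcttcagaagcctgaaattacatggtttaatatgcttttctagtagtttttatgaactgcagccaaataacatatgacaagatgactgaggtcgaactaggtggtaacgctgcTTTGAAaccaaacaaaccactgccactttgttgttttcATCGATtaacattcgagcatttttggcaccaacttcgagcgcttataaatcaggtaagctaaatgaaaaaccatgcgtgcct
CycD upstream: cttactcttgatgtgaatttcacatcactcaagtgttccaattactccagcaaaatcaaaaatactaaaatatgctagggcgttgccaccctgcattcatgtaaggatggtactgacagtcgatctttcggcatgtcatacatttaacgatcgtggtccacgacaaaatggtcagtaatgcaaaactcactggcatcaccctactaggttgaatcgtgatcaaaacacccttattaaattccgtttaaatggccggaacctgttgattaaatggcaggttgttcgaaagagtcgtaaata
CycB3 upstream: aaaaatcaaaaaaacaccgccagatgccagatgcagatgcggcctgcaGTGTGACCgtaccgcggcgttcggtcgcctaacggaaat

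Both fzr stretches, the Cdk1 gap, the CycE intron and the CycB3 stretch held marked words, and the CycD stretch held none of the 11. Other regions without any of them include the strongest promoter region of CycA and the region upstream of blw in the CycB window. The stretches differ in length, and the share of all pooled regions with any of the 11 is not given. The marked words are matches of letters and were not tested as sites.

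IDR peaks had summits in the windows of 4 of the 10 genes, CycB, Cdk1, polo and fzr, with 2 in each. Among all protein-coding genes 30.6% had an IDR summit in the same kind of window, so a share of 4 in 10 is near the background. The windows of CycA, CycB3, CycD, CycE, stg and twe held none. Each had regions of the longer pooled list, as did all 10 genes, against 86.8% of protein-coding genes. The pooled list placed 64 summits in the 10 windows, or 3.98 per 10 kb, and 2.97 per 10 kb over the windows of all genes. For IDR peaks the densities were 0.498 and 0.259 per 10 kb. Only 1 of the 8 IDR summits lay inside the gene whose window held it, and 5 were nearer to the start of a neighbouring gene. Window counts therefore describe the locus and not the named gene alone.

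**Figure D1:**
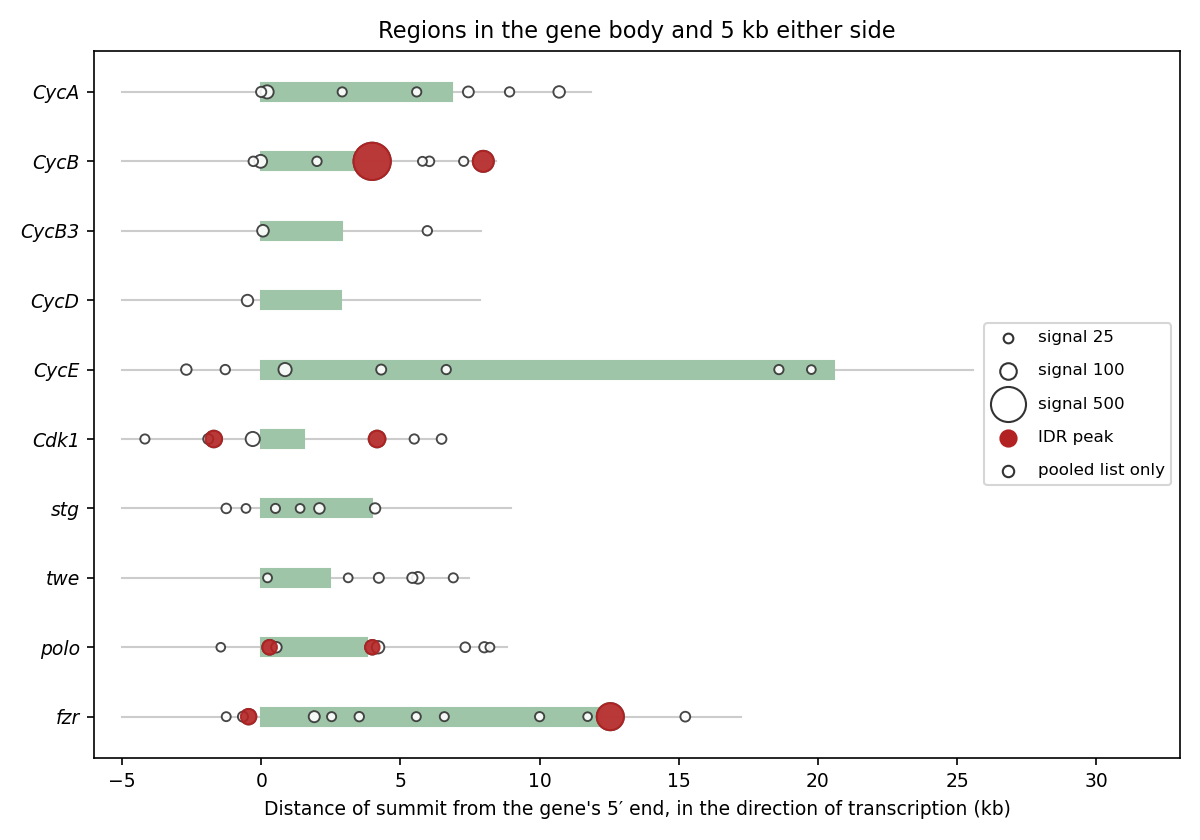
Summits of pooled regions (open circles) and IDR peaks (red) along each gene, in kb from the gene's 5′ end in the direction of transcription. Green bars are gene bodies, grey lines the 5 kb flanks, and circle area rises with the authors' pooled signal. The 2 strongest regions, at CycB (570) and fzr (295), lie just past the 3′ ends of those genes.

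CycB, which encodes the B-type cyclin that partners Cdk1 at entry into mitosis, had the strongest region of the whole set. It lies at 2R 22802805 to 22803134, its pooled signal was 570 and its rank 21 of 2426. Replicate 1 gave 160.5 at rank 31 and replicate 3 gave 408 at rank 20. The region stood near the top of every list. Its summit was intergenic, 557 bp past the 3′ end of CycB and 3339 bp downstream of the nearest CycB start, which was also the nearest start of any annotated transcript. Only 0.48% of protein-coding genes had a window with a pooled signal as high. The second IDR peak in the window, at 2R 22798912 to 22799056, had a pooled signal of 172 at rank 447. Replicate 1 gave 54.9 at rank 645 and replicate 3 gave 114 at rank 413. That summit was 128 bp upstream of blw, a mitochondrial ATP synthase subunit gene, and 4550 bp outside CycB, close to the limit of the window.

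At the promoter of CycB, meaning within 500 bp of a start site, the strongest pooled region was far weaker than the downstream one. Its summit lay 23 bp upstream of a start with a signal of 55.1 and rank 3668, below the IDR list. Replicate 1 gave 20.8 at 109 bp upstream and replicate 3 gave 30.7 at 44 bp upstream. In each list the promoter region of CycB ranked far below the one past the 3′ end, at 5056 against 31 in replicate 1 and 4564 against 20 in replicate 3.

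fzr, the activator of the anaphase-promoting complex, showed the other high value. The region at X 4666900 to 4667135 had a pooled signal of 295 at rank 122, with 102.5 at rank 136 in replicate 1 and 189 at rank 117 in replicate 3. Both replicates placed it among their strongest regions. Its summit lay 294 bp past the 3′ end of fzr and 296 bp upstream of the start of CG3009, so the same region is a promoter region of that neighbour. Of all protein-coding genes, 2.47% had a window with a pooled signal at least as high. Like the CycB region, it was narrower than the 424 bp that 79.9% of IDR peaks share, at 236 bp, and the CycB region spanned 330 bp. Narrow regions were common among strong peaks, 22 of the 25 strongest being under 424 bp.

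The other IDR peak at fzr lay upstream of the gene, at X 4679781 to 4680204. It had a pooled signal of 86.5 at rank 1713, with 26.9 at rank 2925 in replicate 1 and 58.5 at rank 1509 in replicate 3. Its summit was 456 bp upstream of the fzr start and just inside the 3′ untranslated end of the upstream neighbour Pp2C1. It ranked below the first 2426 regions in replicate 1 alone. A weaker pooled region of 36.8 at rank 7613 sat 100 bp upstream of the inner fzr start, with 12.2 in replicate 1 and 22.5 in replicate 3. In all, fzr had 12 pooled regions, the most of the 10 genes, over a window of 22.25 kb.

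polo, the mitotic kinase, was the only gene with an IDR summit inside its own body. The peak at 3L 20309742 to 20310165 lay in 5′ untranslated sequence between both polo starts, 93 bp upstream of the inner one. Its pooled signal was 76.6 at rank 2127, with 26.9 at rank 2904 in replicate 1 and 46.6 at rank 2237 in replicate 3. The value is near the lower edge of the IDR list. A second IDR peak, at 3L 20313433 to 20313856, had a pooled signal of 74.5 at rank 2213 and lay 179 bp past the 3′ end of polo. Replicate 1 gave 19.0 at rank 6153 and replicate 3 gave 49.6 at rank 2035, so the order of the polo peaks differed between replicates. This summit was 13 bp downstream of the start of alphaSnap, which encodes a factor of vesicle fusion.

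Cdk1, the mitotic kinase that the cyclins activate, had no IDR peak at its own start but a region at the very edge of the list. The pooled region at 2L 10386356 to 10386779 had a signal of 69.7 at rank 2487, and the weakest IDR peak had 70.5. Replicate 1 gave 24.3 at rank 3637 and replicate 3 gave 43.25 at rank 2537. Its summit lay 306 bp upstream of Cdk1 and closer to mRpS7, a mitochondrial ribosomal protein gene transcribed the other way. The region cannot be given to either gene. The IDR peaks of the window were at 2L 10381890 to 10382313 (pooled signal 103 at rank 1227) and 2L 10387756 to 10388179 (101.5 at rank 1262). The former gave 38.7 in replicate 1 and 62.0 in replicate 3, and its summit lay 161 bp upstream of CG5096. The latter gave 34.1 in replicate 1 and 61.7 in replicate 3, and its summit lay 137 bp upstream of da, which encodes an E protein of neural and sex determination. Both ranked within the first 1775 regions of each replicate.

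In the pooled list the Cdc25 genes had the weakest regions at their starts among the 8 genes with one. stg, which triggers the zygotic divisions of the embryo, had a pooled signal of 20.4 at rank 22302, with the summit 35 bp downstream of a start. Replicate 3 gave 23.2 there, and replicate 1 had no region within 500 bp of a stg start. Its strongest region, in coding sequence 1614 bp downstream of a start, had a pooled signal of 32.8 at rank 9352, with 29.04 in replicate 3 and no match in replicate 1. twe, the meiotic Cdc25, had a pooled signal of 18.55 at rank 25974, 112 bp downstream of a start. Neither replicate had a summit within 200 bp of it. Replicate 1 had a region of 15.4 at 21 bp downstream, and replicate 3 had no region within 500 bp of a twe start. The strongest region in the twe window, 43.2 at rank 5663, lay 94 bp upstream of a start of PRL-1, with 21.2 in replicate 1 and 16.7 in replicate 3. At both genes 1 replicate lacked a promoter region. The pooled values were close to the lowest of that list (16.9), while the regions found in 1 replicate were above that replicate's median.

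**Figure D2:**
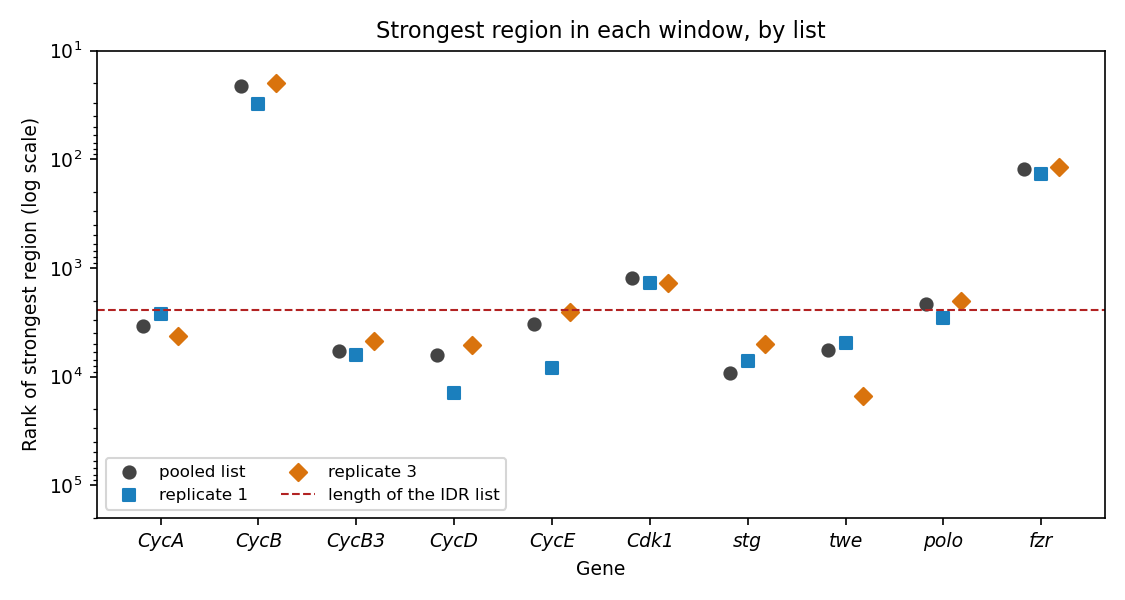
Rank of the strongest region in each gene's window (log scale, strongest at the top) in the pooled list, replicate 1 and replicate 3; the dashed line is the length of the IDR list. CycB (ranks 21, 31 and 20) and fzr (122, 136 and 117) hold their place in all 3 lists, while CycD, CycE and twe move most.

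The mitotic cyclins were set beside the G1 cyclins, which were 3 genes against 2 and are described without a test. IDR summits fell in 1 of 3 mitotic cyclin windows, that of CycB, and in 0 of 2 G1 cyclin windows. Among all protein-coding genes 30.6% had one, and so few genes cannot be told apart from that share. Pooled summits numbered 17 over 43.2 kb at the mitotic cyclins, or 3.94 per 10 kb, and 8 over 43.4 kb at the G1 cyclins, or 1.84 per 10 kb. The density was 5.33 and 2.53 per 10 kb in replicate 1 and 3.475 and 1.842 in replicate 3. Over the windows of all genes the pooled density was 2.97 per 10 kb, and none is given for the replicate lists. Most of the pooled summits at the mitotic cyclins had the start of a neighbouring gene nearest. Nearly all of those at the G1 cyclins had a CycD or CycE start nearest. The densities thus describe the loci, neighbours included, and not the cyclin genes alone. The ordering of the sums did not hold gene by gene. CycB3 had 1.55 pooled summits per 10 kb, below the 2.29 of CycE, while CycA had 4.15, CycB 5.96 and CycD 0.778.

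**Figure D3:**
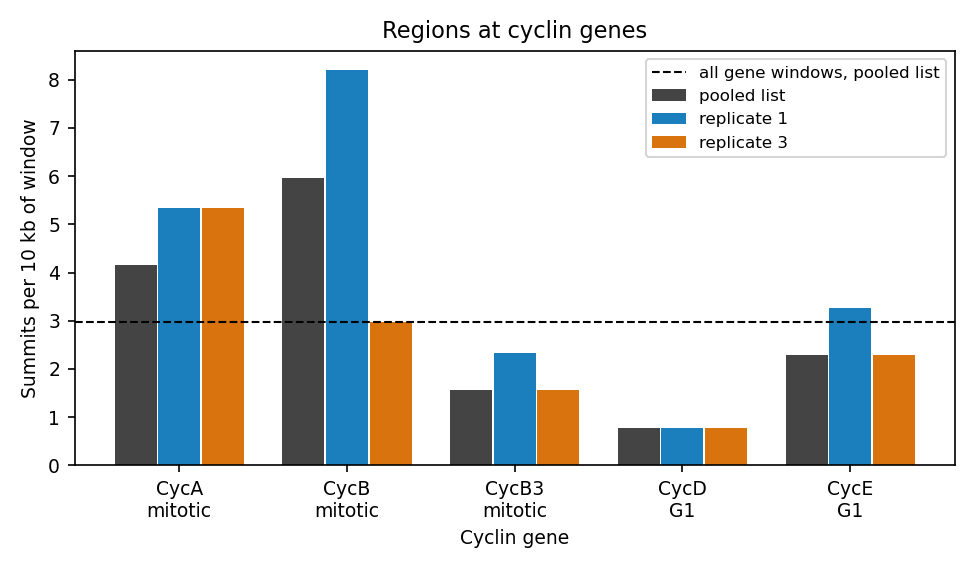
Summits per 10 kb of window at the 5 cyclin genes in the pooled list and in each replicate; the dashed line is the density over all gene windows in the pooled list (2.97). CycA and CycB reach or pass the line in each list, CycB3 and CycD lie under it, and CycE passes it in replicate 1 alone.

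At the start sites, all 3 mitotic cyclins had a pooled region within 500 bp of a start and neither G1 cyclin did, where 51.8% of protein-coding genes had one. CycA, whose product acts in S phase and mitosis, had a pooled signal of 57.4 at rank 3430, 210 bp downstream of its start in 5′ untranslated sequence. The strongest CycA promoter region of replicate 1 was 28.2 at rank 2656, 352 bp downstream, and that of replicate 3 was 32.1 at rank 4232, 201 bp downstream. CycB3, the cyclin of late mitosis, had 42.4 at rank 5838, 62 bp downstream of its start, with 18.2 in replicate 1 and 29.99 in replicate 3. CycA, CycB and CycB3 were thus present at the start in both replicates, and none of the 3 reached the IDR list there.

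CycE, the S phase cyclin, had its strongest pooled region in an intron, 685 bp upstream of the nearest of its 3 starts. That region, at 2L 15747083 to 15747506, had a signal of 58.7 at rank 3297, slightly above the promoter values of CycA and CycB. Replicate 3 gave 43.2 at rank 2539 and replicate 1 gave 15.4 at rank 9858, so the replicates differed widely in rank. Each replicate alone did have a region within 500 bp of a CycE start, of 16.5 at 34 bp upstream in replicate 1 and 22.95 at 396 bp upstream in replicate 3. Both positions are counted from the same start, and the pooled list had no region within 500 bp of any CycE start. CycD, the partner of Cdk4 in growth and G1 progression, had 1 region in each list. The pooled region at X 15909965 to 15910388 had a signal of 40.4 at rank 6377 and lay 501 bp upstream of the start, just past the 500 bp limit. Replicate 3 had it at 28.6 and rank 5175, whereas the only region of replicate 1 lay 1675 bp downstream with 12.97 at rank 14062. The contrast at start sites therefore rests on the 500 bp limit at CycD and on the pooled list at CycE.

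**Figure D4:**
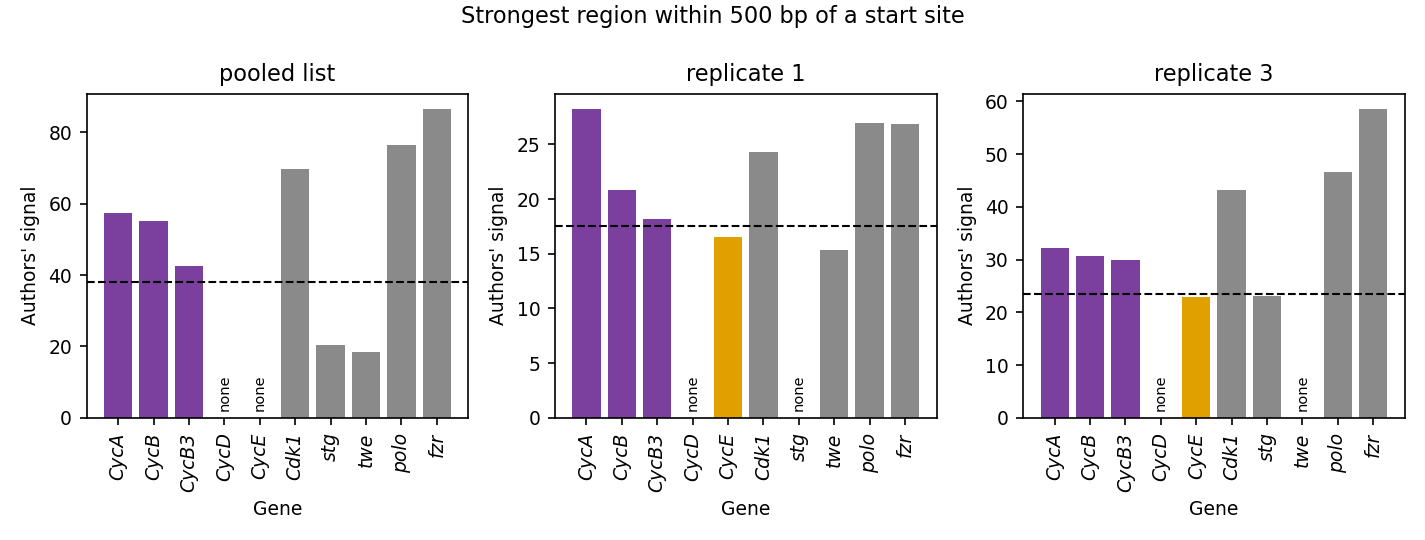
Strongest region within 500 bp of a start site of each gene, as the authors' signal, in the pooled list and in each replicate; dashed lines are the medians over all genes with such a region (38.1, 17.6 and 23.5), purple bars are mitotic cyclins and yellow bars G1 cyclins. The mitotic cyclins exceed the median in each list, and CycD has no region there in any.

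Within 500 bp of their starts, 8 of the 10 genes had a pooled region, against 51.8% of all protein-coding genes. An IDR peak lay there at 2 of the 10, polo and fzr, against 10.2% of all protein-coding genes. With the 2426 strongest regions of replicate 1 alone, neither polo nor fzr had one there, and with those of replicate 3 both did. No share over all protein-coding genes is given for the promoter counts of a single replicate. Over the 8 genes with a region the median of the strongest pooled promoter signal was 56.3, and over the 7229 protein-coding genes with one it was 38.1. The order of the 8 was fzr (86.5), polo (76.6), Cdk1 (69.7), CycA (57.4), CycB (55.1), CycB3 (42.4), stg (20.4) and twe (18.5). In replicate 1 the order began with CycA (28.2), polo (26.92) and fzr (26.85), and in replicate 3 with fzr (58.5), polo (46.6) and Cdk1 (43.25). The first 4 genes of the pooled order were also the first 4 in each replicate, in the same order in replicate 3 and in another order in replicate 1.

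Replicates placed the IDR summits at nearly the same bases. All 8 had a summit within 200 bp in both replicates, with offsets from 54 bp upstream to 39 bp downstream on the forward strand. The IDR list was derived from the replicate and pooled lists, so matches in both replicates were largely built in. The share of all IDR peaks with such matches is not given here. Taking the 2426 strongest regions of each replicate alone, 3 of the 10 genes had one in the window in replicate 1 (CycB, Cdk1 and fzr) and 4 in replicate 3 (CycB, Cdk1, polo and fzr). The windows then held 5 and 8 summits. The shares over all protein-coding genes were 30.7% and 30.1%. Of the 64 pooled summits in the windows, 28 (43.8%) were matched in both replicates, and 43.6% of all pooled regions were. The signal in replicate 3 divided by that in replicate 1 had a median of 1.67 over the 28 and of 1.42 over all 13078 matched regions, with a range of 0.711 to 3.96 in the windows.

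**Figure D5:**
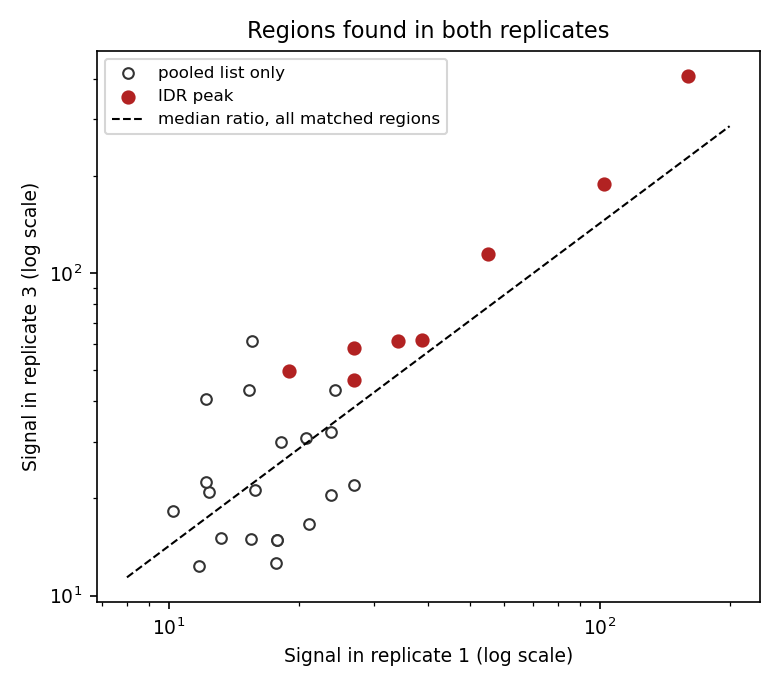
Signal of the 28 regions matched in both replicates, replicate 1 against replicate 3, both on log scales; red points are IDR peaks and the dashed line is the median ratio over all matched regions (1.42). All 8 IDR peaks lie above the line. The line covers matched pooled regions of every strength, and the share of all IDR peaks above it is not given. Adjacent pooled regions can share a replicate region.

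For genes without an IDR peak in the window the nearest one was 13891 bp from the gene at CycE, 18011 bp at twe, 18977 bp at stg, 35875 bp at CycD, 53932 bp at CycB3 and 130028 bp at CycA. The nearest IDR peak left out by the 5 kb flank lay 5241 bp from fzr, with the start of Pp2C1 nearest, and had a signal of 76.04 at rank 2149. CycA stood farthest from any IDR peak, although its promoter region was the strongest of the mitotic cyclins in all 3 long lists. Summits of the 64 pooled regions fell in introns (18), intergenic sequence (15), coding exons (13), 5′ untranslated (10) and 3′ untranslated sequence (8). Of the 64, 12 lay within 500 bp of a start of the named gene, 18 at the start of a neighbour and 34 at neither.

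The words searched, each on both strands in 300 bases centred on a summit, were the DNA replication-related element TATCGATA and its core ATCGAT, the GAGA word GAGAG, the hexamer TTTGAA of the cell cycle genes homology region known from mammalian mitotic promoters, the E2F words TTTCGCGC, TTTGGCGC and TTTCCCGC, the E-boxes CACGTG and CAGCTG, the core GGTCACAC of Ohler motif 1, and the word CACTGTGC. The core ATCGAT lies within TATCGATA, so those counts overlap. The Ohler motif 1 core was in 7 of the 64 windows (10.9%), 2.02% of all pooled windows and 3.01% of IDR windows. Those 7 included the promoter regions of CycB, CycB3 and fzr, and 2 of them overlap at CycB. The others lay in 3′ untranslated sequence of fzr, in a stg intron and at the start of alphaSnap. Of the 64 summits 46.9% lay within 500 bp of a protein-coding start, against 28.4% of all pooled regions. The sets thus differ in their share of promoters, and the effect of this on the word counts was not tested. The hexamer TTTGAA was in 20 windows (31.2%), beside 30.01% of all pooled windows and 38.4% of IDR windows. Its windows include the CycB region past the 3′ end, the Cdk1 gap and the strongest region of the G1 cyclin CycE. Among the mitotic cyclins, the strongest pooled promoter region held it at CycB and not at CycA or CycB3. GAGAG was in 17 windows (26.6%), against 33.6% of pooled windows. E2F words were rare, with TTTCGCGC in 0, TTTGGCGC in 2 and TTTCCCGC in 2 windows, where 1.01%, 1.77% and 1.41% of pooled windows held them. TATCGATA was in 2 windows (3.12%), both in the CycA window and 1 of them at the CycA start, against 2.49%. The remaining words were in 10 (ATCGAT), 12 (CAGCTG), 3 (CACGTG) and 1 (CACTGTGC) of the 64, where pooled windows held them in 11.4%, 15.4%, 3.93% and 2.62%. These shares are descriptions without a test.

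Beyond the 10 genes, 9 lists of cell cycle genes with 104 members gave the setting. An IDR summit lay within 500 bp of a start at 19 of the 104 (18.3%), beside 10.2% of all protein-coding genes. A pooled region lay there at 85 (81.7%), beside 51.8%, with a median signal of 42.5 beside 38.1 over genes with one. The 19 genes shared 17 regions, and at 7 of them another gene's start was nearer, so the shares are given as a description without a test.

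G1 and S phase entry gave 3 of 11: Dp, the E2F partner (115.5, rank 986), the retinoblastoma family gene Rbf2 (94.1) and CycG (70.7). The CycG region ranked 1429 in replicate 1 and 16577 in replicate 3. Regulators of Cdk1 gave 2 of 13, Cdk7 of the CDK-activating kinase (76.8) and mts, the catalytic subunit of protein phosphatase 2A (117.6), both nearer to another start, those of snf and Rack1. The anaphase-promoting complex and its partners gave 1 of 14, the subunit gene Cdc16 (91.9). Mitotic kinases and the spindle checkpoint gave 3 of 14, aurA (80.8) and the checkpoint genes BubR1 (85.02) and Bub3 (93.1).

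Genes of the spindle, centrosome and cytokinesis gave 3 of 15, led by pbl, which is needed for cytokinesis (181.9, rank 392), then the centrosomal tacc (129) and the septin gene pnut (90.6). Cohesin, condensin and separase genes gave 4 of 16, the condensin genes Cap-H2 (97.4), Cap-D2 (93.1), SMC2 (83.4) and barr (73.95). The Cap-H2 region was nearer to the start of MED7, and the condensin genes glu and Cap-G had no pooled region within 500 bp of a start. Cap-D2 and Bub3 share a region, as do barr and lok. Cell cycle checkpoint genes gave 3 of 5, mei-41 (84.8), lok (73.95) and tefu (71.4), each nearer to a neighbour's start. There were 0 of 10 among other cyclins and cyclin-dependent kinases and 0 of 6 among Myb-MuvB and DREAM genes. All values are pooled signals of a region within 500 bp of a start. On that measure the highest of the 10 genes was fzr at 86.5, below the 181.9 of pbl. The 3′ regions of CycB and fzr lie outside the promoters of those genes and are not set beside these values.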

How the data were processed

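Chromatin was sonicated to 200 to 800 bp, per the labels. The deposited narrowPeak lists on dm6 give a signal per region in column 7, a −log10 q value in column 9 and a summit offset. Per the deposited README notes, the authors made each replicate list from that replicate's alignment and the pooled list from both, all with the same control, and derived the IDR list from these lists. The deposited −log10 q was 3.82 for all IDR peaks and was not used to rank. The sources used here name no aligner, peak caller, version or IDR threshold. The lists on dm3 were not analysed.

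Regions were ranked by signal. Genes and protein-coding starts came from Ensembl release 115 (BDGP6.54), and sequence from the RefSeq Release 6 genome, whose arms contain every region. A summit belonged to a gene if it lay in the gene body or within 5 kb, and to a promoter if within 500 bp of any protein-coding start. Summits were matched between lists within 200 bp. No test across conditions exists, genes are not replicates, and values are descriptive. Placement was run on simulated summits planted within 500 bp of starts, which checks the code and not the regions of these lists. The members, lists and words were chosen with earlier results of these data known. Named genes are the members, the gene with the start nearest to each IDR summit, and up to 4 genes of each list by signal; mRpS7, Pp2C1, PRL-1, snf, Rack1, MED7, glu and Cap-G were chosen after their values were seen. All 104 list genes matched, 1 through a RefSeq synonym. Alternatives were other flanks, promoter widths, peak sets and each replicate alone. Python 3.11.15, numpy 2.4.6, pandas 2.3.3 and matplotlib 3.10.9 were used.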

Additional observations from a re-analysis of the deposited data

How the results depend on the processing

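Of 59 alternative values for the counts and densities, 42 stayed within 1.5 times the reported one. The 42 include G1 cyclin counts of 0 that stayed at 0 and the IDR matches in both replicates, which were largely built in. The tally therefore does not measure how robust the results are. With no flank, 1 gene (polo) kept an IDR summit in its body, the IDR summits fell from 8 to 1, the mitotic cyclins with one from 1 to 0 and pooled summits from 64 to 23; the alternative itself removes the flanks. In the strongest 1213 IDR peaks 2 genes (CycB and fzr) had 3 summits, 0 had one at the promoter, and 4 of the listed cell cycle genes had one. In the 5000 strongest pooled regions there were 13 summits, in the windows of 6 genes including 2 mitotic cyclins and 1 G1 cyclin, with 5 genes and 39 list genes having one at a promoter. A promoter of 200 bp left 1 gene, polo, and 12 list genes. No share over all protein-coding genes is given for the strongest 1213 peaks, the 5000 strongest regions or the 200 bp promoter. These counts therefore show how far the values moved and not whether they differ from the background. With 1 replicate's list alone, summits in the windows ranged from 5 to 8, the lower value being that of replicate 1. Genes with one at a promoter ranged from 0 to 2, and replicate 1 again gave the lower value. These promoter counts likewise have no share over all protein-coding genes beside them. The G1 cyclins had 0 IDR summits under every flank and in each replicate alone. A flank of 2 or 10 kb left the strongest pooled signal of a gene at the same value in 15 of 20 cases. No paired analysis was possible because there is only 1 group. The unknown depth limits what the absence of a region can show.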
